A study of Schizosaccharomyces pombe with 6 samples.

Results

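The 10 fission yeast ade genes, ade1 to ade10, were followed in newly made RNA before and during depletion of the transcription elongation factor Spt5 in Schizosaccharomyces pombe. They were picked by gene name: each RefSeq symbol was matched through its systematic ID to the transcription unit that carries it, and all 10 genes were found, in 10 different units among 5484. All libraries came from 1 haploid strain, ASP167, of mating type h-. Its spt5 gene (spt5::hphMX6-Pnmt81-spt5+-V5-IAA17-kanMX6) is driven by the thiamine-repressible promoter Pnmt81 and encodes a protein with a V5 tag and the IAA17 degron, which an auxin directs to destruction in cells that make the plant receptor TIR1. The receptor is supplied from the ade6 locus next to an ade6+ copy (ade6::ade6+), as the fusions Padh15-skp1-OsTIR1 and Padh15-skp1-AtTIR1-2NLS-9myc with the marker natMX6 between them, and the strain also carries ura4-D18. Cultures in EMM, a minimal medium, were labelled with 5 mM 4-thiouracil for 10 min at 0 h, when thiamine and the synthetic auxin NAA (1-naphthaleneacetic acid) were added, and after 2.5 and 4.5 h of that treatment. There were 2 libraries at each time. An untreated time course was not analysed here, so the loss of Spt5 cannot be told apart from the effects of thiamine, of NAA or of the hours of growth.

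The ade genes encode the enzymes that build purines de novo, starting from phosphoribosyl pyrophosphate (PRPP) and ending in the adenine nucleotide AMP. Loss of most of these enzymes makes the yeast depend on adenine in the medium, and loss of ade6 or ade7 colours colonies red because an intermediate piles up, which made ade6 a classical marker of fission yeast genetics. In minimal medium without adenine the whole route is needed for growth. In the order of the route, Ade4 commits PRPP to the pathway, Ade1 catalyses a pair of non-consecutive early steps, Ade5 adds a formyl group, Ade3 adds nitrogen from glutamine, Ade6 carboxylates the first closed ring, Ade7 and Ade8 add aspartate and release fumarate, and Ade10 makes IMP, the first complete purine. Ade2 and again Ade8 turn IMP into AMP, and Ade9 supplies the one-carbon groups on tetrahydrofolate that Ade5 and Ade10 use.

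Only 4 of the 10 genes are alone in their unit in the authors' deposited table, and the counts of the other 6 units hold a second gene as well. The single-gene units are those of ade1 (SPBC405.01, chromosome II, 3140588 to 3143285, plus strand), ade6 (SPCC1322.13, chromosome III, 1316290 to 1318067, plus strand), ade9 (SPBC2G2.08, chromosome II, 3448916 to 3452626, plus strand) and ade10 (SPCPB16A4.03c, chromosome III, 947649 to 949645, minus strand). All positions of units are those of the deposited table on ASM294v2. The unit of ade4 (SPAC4D7.08c, chromosome I, 5364094 to 5366410, minus strand) lies wholly within ade4, whose intron holds the snoRNA gene snoR58. In the remaining 5 units a neighbouring coding gene takes up much of the length. The ade2 gene (SPAC144.03) covers 52.1% of a unit shared with iec1, of the Ino80 chromatin remodelling complex (chromosome I, 4653059 to 4656562, plus strand). The ade3 gene (SPAC6F12.10c) covers 50.2% of a unit of 8418 bases shared with sfc1, of the RNA polymerase III factor TFIIIC (chromosome I, 1326859 to 1335276, minus strand). The ade5 gene (SPCC569.08c) covers 67.1% of a unit shared with SPCC569.09 (chromosome III, 2412343 to 2414767, plus strand). The ade7 gene (SPBC409.10) covers 44.0% of a unit shared with meu18 (chromosome II, 1156675 to 1160327, plus strand). The ade8 gene (SPBC14F5.09c) covers 48.6% of a unit shared with the ubiquitin ligase gene SPBC14F5.10c (chromosome II, 4173092 to 4178046, minus strand). A value given for ade2, ade3, ade5, ade7 or ade8 is therefore that of the unit, and the part of each gene in it cannot be told apart.

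The upstream regions of ade10 and ade9 are shown because ade10 differed most between the 0 h libraries and ade9 was lower at both later times against either of them, as described further on. Each is the 250 bases before the annotated transcript start, on the gene's own strand, from RefSeq's ASM294v3, at chrIII:949647-949896 (minus strand) and chrII:3448656-3448905 (plus strand), with any TATAAA in capitals.
ade10: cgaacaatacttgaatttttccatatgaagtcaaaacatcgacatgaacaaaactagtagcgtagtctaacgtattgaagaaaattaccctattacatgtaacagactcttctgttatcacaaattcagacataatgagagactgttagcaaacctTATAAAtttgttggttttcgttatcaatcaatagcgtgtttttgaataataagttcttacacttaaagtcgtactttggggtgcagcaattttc
ade9: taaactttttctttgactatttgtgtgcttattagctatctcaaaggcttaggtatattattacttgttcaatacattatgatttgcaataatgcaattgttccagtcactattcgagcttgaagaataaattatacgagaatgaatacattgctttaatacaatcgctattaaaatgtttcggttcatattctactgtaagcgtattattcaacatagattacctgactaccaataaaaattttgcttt
The ade10 region holds TATAAA 94 bases upstream of the start on the gene's strand, and the ade9 region holds none on either strand. TATAAA was counted in windows from 250 bases before to 50 bases after the start. It occurred on either strand in 7 of the 10 ade genes (70.0%), all except ade2, ade3 and ade9. Counted on either strand in the same way, it was in 48.1% of 5112 coding genes. Only ade10 held it on the gene's own strand. In the other ade genes with a match it was the reverse complement, in ade8 at 248 bases upstream of the start. TGACTC, bound by Bas1 and Gcn4 upstream of purine and amino acid genes of Saccharomyces cerevisiae, was in 0 of the 10 windows and in 6.96% of all, and the HomolD box CAGTCACA, known from ribosomal protein genes, was in 0 of the 10 and in 2.68% of all. These are matches of letters only. The windows of ade2, ade3 and ade8 lie inside their shared units, away from the start of the unit whose counts are given.

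The libraries held 11525663 to 35673601 counts on units, and the ade units had 915 to 39622 counts per library. All 10 ade units were among the 5208 units with enough counts to be tested. The unit of spt5 had 1045 and 721 CPM at 0 h, 121 and 108 CPM at 2.5 h, and 98.2 and 92.3 CPM at 4.5 h (CPM, the count as a share of the library after TMM scaling). It fell at both times relative to 0 h, with log2 fold changes of -2.95 and -3.21. The 0 h libraries stood apart: a gap of 2-fold or more was found between them for 12.1% of all units, whereas it was found for 2.00% at 2.5 h and 1.63% at 4.5 h. No spike-in was used here, so every level is a share of its own library.

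At 0 h the ade units spanned a wide range of new RNA per length, with ade10 highest in the mean and ade5 lowest. Per kilobase of unit, ade10 averaged 375 ± 364 CPM at 0 h, 328 ± 79.2 CPM at 2.5 h and 226 ± 9.07 CPM at 4.5 h (SD, n = 2 each), which placed it at percentiles 97.2, 96.5 and 93.7 of all tested units. The unit of ade3 came second at each time, with 143 ± 34.5, 158 ± 30.6 and 108 ± 1.48 CPM per kilobase. At 0 h the neighbours in the order ade10, ade3, ade1, ade4 and ade6 all overlapped in their libraries, and so did ade8, ade9, ade2 and ade7 at levels between 44.2 and 53.0 CPM per kilobase. The unit of ade5 had 28.8 ± 5.64 CPM per kilobase at 0 h, with both libraries below those of ade7, ade8 and ade9 but overlapping those of ade2. At 4.5 h the lowest level was that of ade9, with 32.9 ± 1.85 CPM per kilobase, below ade2 at 39.9 ± 2.34.

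**Figure D1:**
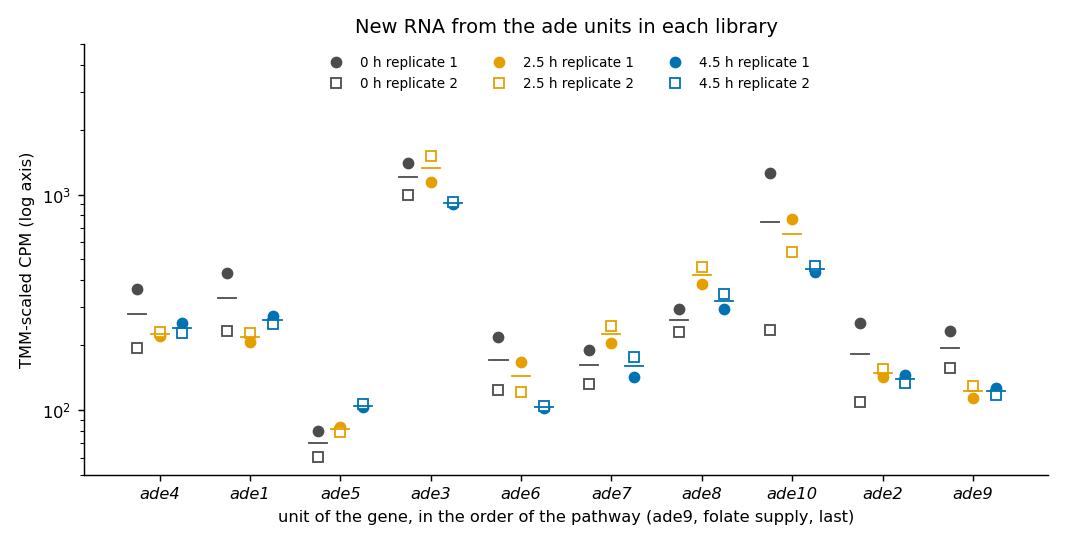
TMM-scaled CPM of each ade unit (log axis) in the 6 libraries, ordered along the pathway with the folate enzyme gene ade9 last; within each gene the times run from 0 h to 4.5 h, filled circles are replicate 1, open squares replicate 2 and bars the mean of 2. The gap between the 0 h replicates is widest for ade10, at 1263 and 236 CPM, and narrowest for ade8, at 296 and 229 CPM, while the replicates of 4.5 h lie close together.

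The clearest pattern in the ade genes lay between the 0 h libraries themselves. All 10 units were higher in replicate 1 than in replicate 2 of 0 h, as were 50.4% of all tested units, and the median difference was 0.69 on the log2 scale for the ade units, against 0.01 for all units. The IMP-forming gene ade10 differed most, with 1263 CPM in replicate 1 and 236 CPM in replicate 2, a 5.36-fold difference that was matched or exceeded by 2.09% of all units. The ade2 unit, of adenylosuccinate synthetase, came next with 255 and 109 CPM, and 8.58% of units differed as much. These were the 2 of 10 ade units that lay at least 2-fold apart at 0 h. The first enzymes of the route followed: ade4 had 363 CPM in replicate 1 and 195 CPM in replicate 2, and ade1 had 432 and 233 CPM. Smaller gaps were those of ade5 (79.6 and 60.2 CPM) and ade8 (296 and 229 CPM), which 46.2% and 50.6% of all units matched or exceeded. Between the replicates of 2.5 h 3 of the 10 were higher in replicate 1, and between those of 4.5 h 4 of the 10, with median differences of -0.14 and -0.03, and 0 units of the 10 lay 2-fold apart at either time.

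**Figure D2:**
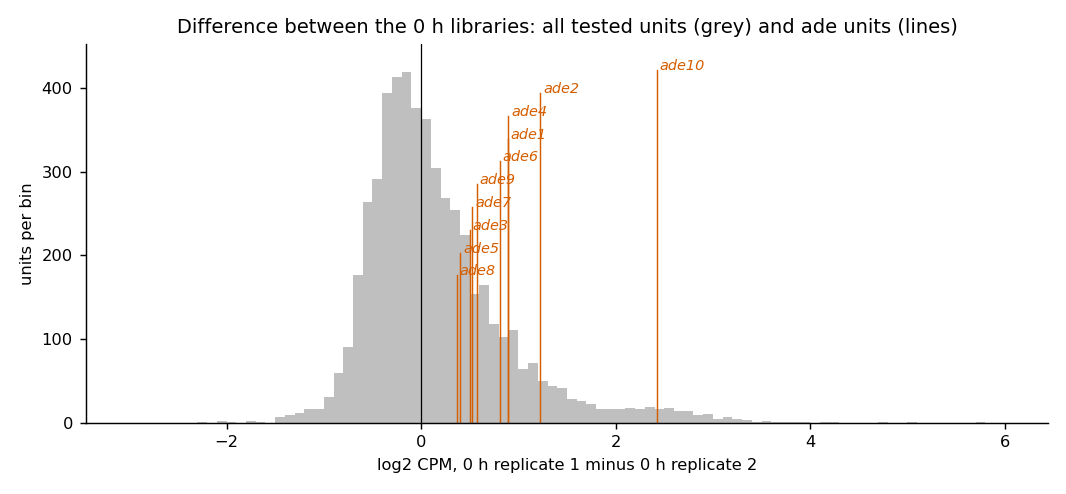
Log2 CPM of 0 h replicate 1 minus 0 h replicate 2 (horizontal axis) for all 5208 tested units as a histogram in bins of 0.1 (grey, units per bin) and for the 10 ade units as lines. All 10 lines lie to the right of 0, with ade10 at 2.42 and ade2 at 1.23.

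Other groups of genes moved with this gap between the 0 h libraries. Of 138 measured units of cytoplasmic ribosomal proteins 137 were higher in replicate 1, with a median difference of 2.44 on the log2 scale, and of 12 core stress genes 0 were, with a median of -0.55. All 12 measured genes of folate and one-carbon metabolism were higher in replicate 1 (median 0.97), as were 6 of 7 histidine synthesis units (median 0.77) and 4 of 5 pyrimidine synthesis units (median 0.43). Of 8 nitrogen starvation and mating genes 6 were higher in replicate 1 (median 0.33). The part of these differences in the ade values was not tested.

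The first comparison asked how the ade units stood after 2.5 h of depletion relative to 0 h. No ade unit passed the test at 2.5 h. The quasi-likelihood test of edgeR called 0 of 10 at a Benjamini-Hochberg adjusted p under 0.05. Beside this, 17.4% of all tested units were called (12.3% higher and 5.11% lower). At an unadjusted p under 0.05 there were 2, ade8 and ade9, and DESeq2 called the same 2 of 10, beside 22.5% of all units. The log2 fold changes ran from -0.68 to 0.69, 4 positive and 6 negative, with a median of -0.22 against 0.01 over all units. The libraries of 2.5 h and 0 h did not overlap for 4 of 10 ade units, ade7 and ade8 being higher and ade1 and ade9 lower, and such separation was found in 56.7% of all units.

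The unit with adenylosuccinate lyase, ade8, had 386 and 459 CPM at 2.5 h, against 296 and 229 CPM at 0 h. Both 2.5 h libraries lay above both 0 h libraries, and the log2 fold change was 0.69 (SE 0.19, 95% interval 0.22 to 1.16, adjusted p = 0.0594; DESeq2 adjusted p = 0.0373). The folate enzyme gene ade9 went the other way, with 114 and 130 CPM at 2.5 h, against 233 and 156 CPM at 0 h. Both 2.5 h libraries lay below both 0 h libraries, at a log2 fold change of -0.68 (SE 0.21, 95% interval -1.20 to -0.16, adjusted p = 0.0804; DESeq2 adjusted p = 0.0309). The unit with SAICAR synthetase, ade7, had 204 and 246 CPM at 2.5 h, against 191 and 133 CPM at 0 h (log2 fold change 0.48, adjusted p = 0.202). The bifunctional gene ade1 had 206 and 228 CPM at 2.5 h, against 432 and 233 CPM at 0 h (log2 fold change -0.61, adjusted p = 0.199). In the remaining 6 units the 2.5 h libraries lay within or across the range of the 0 h libraries. The widest interval was that of ade10, at -0.19 with bounds of -2.15 and 1.76.

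The second comparison asked the same of 4.5 h. At 4.5 h edgeR again called 0 of 10 ade units, beside 17.9% of all units (10.1% higher and 7.80% lower). There were 2 at an unadjusted p under 0.05, ade5 and ade9. DESeq2 called 1 of 10, ade9, beside 23.8% of all units. Of the log2 fold changes 2 were positive and 8 negative, with a median of -0.36 against 0.02 over all units. For 4 of 10 the libraries of 4.5 h and 0 h did not overlap, ade5 being higher and ade3, ade6 and ade9 lower, beside 61.6% of all units.

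The gene ade9 had 127 and 117 CPM at 4.5 h, below the 233 and 156 CPM of 0 h (log2 fold change -0.67, SE 0.21, adjusted p = 0.0781; DESeq2 adjusted p = 0.0279). This was the level it had at 2.5 h, and the difference between 4.5 h and 2.5 h was 0.00 with a 95% interval of -0.52 to 0.52. The unit with GAR transformylase, ade5, had 103 and 106 CPM at 4.5 h, against 79.6 and 60.2 CPM at 0 h (log2 fold change 0.58, SE 0.18, adjusted p = 0.0689). It was the only ade unit with both 4.5 h libraries above both 0 h libraries. The unit of ade8 came close, with 295.5 and 344.7 CPM at 4.5 h against 295.6 and 229.4 CPM at 0 h. The gene ade6, of AIR carboxylase, had 102 and 104 CPM at 4.5 h, against 218 and 124 CPM at 0 h (log2 fold change -0.73, SE 0.30, adjusted p = 0.147). The unit of ade3, of FGAM synthase, had 902 and 920 CPM at 4.5 h, against 1406 and 995 CPM at 0 h (log2 fold change -0.40, adjusted p = 0.288). The ade6 locus carries the receptor construct in every library, so its counts may come from a locus that differs from the reference, and whether reads of the inserted skp1 fusions enter any ade unit was not tested. For the other 6 units the 4.5 h libraries overlapped the 0 h range: ade10 stood at 439 and 465 CPM and ade2 at 146 and 134 CPM, between their own 0 h libraries, and so did ade1 (274 and 251 CPM) and ade4 (253 and 227 CPM). With log2 fold changes of -0.73, -0.38, -0.34 and -0.22 these 4 had 95% intervals that include 0.

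**Figure D3:**
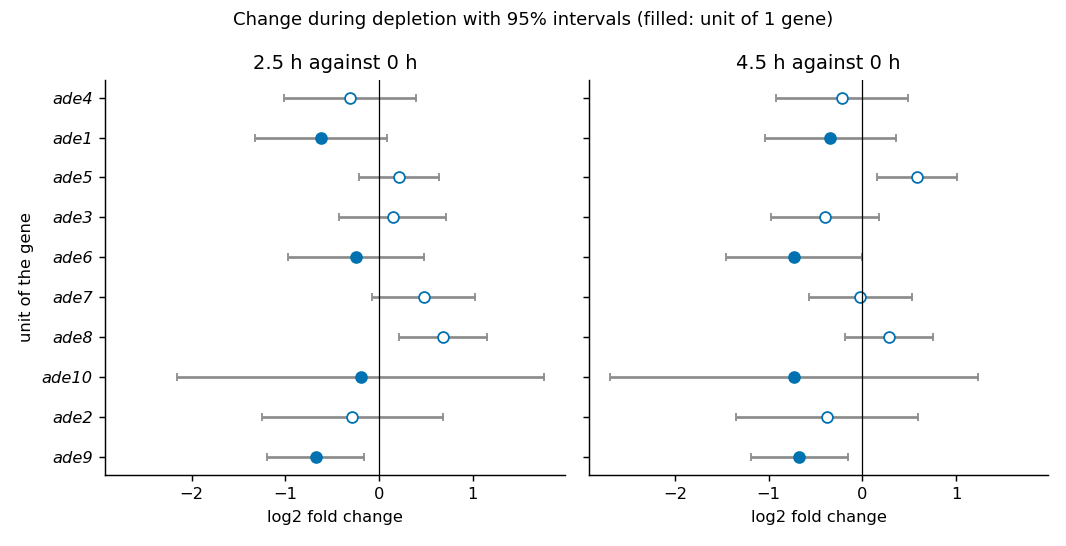
Log2 fold change of each ade unit at 2.5 h against 0 h and at 4.5 h against 0 h (horizontal axes) with 95% intervals from the edgeR fit over 6 libraries. Filled points are units with 1 gene and open points units with 2. The second gene of the ade4 unit is snoR58 in the ade4 intron. The intervals of ade9 lie below 0 at both times, that of ade8 above 0 at 2.5 h and that of ade5 above 0 at 4.5 h, and 0 of the 10 passed the adjusted threshold.

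Units that hold only an ade gene and units with a second gene had medians of opposite sign at 2.5 h relative to 0 h and both negative medians at 4.5 h. All 4 single-gene units had negative log2 fold changes at both times, with medians of -0.43 at 2.5 h and -0.70 at 4.5 h, though ade10 at 2.5 h turned to 0.07 with the replicate number as a term and without replicate 1 of 0 h the sign turned positive for ade10 at both times, for ade6 at 2.5 h (0.11) and for ade1 at 4.5 h (0.06). Of the 6 units with 2 genes 4 were positive at 2.5 h (median 0.18) and 2 at 4.5 h (median -0.12). These 6 include the ade4 unit, which lies wholly within ade4 around snoR58 and was negative at both times (-0.31 and -0.22). The split by number of genes was seen after the values and has no test. The single-gene units also share a long half-life score in the authors' deposited table, at percentiles 87.4 (ade1), 91.5 (ade6), 89.9 (ade9) and 94.6 (ade10) of 5471 scored units. The units of ade2, ade4 and ade8 were at 88.4, 80.8 and 88.6, and those of ade7, ade5 and ade3 at 55.9, 41.9 and 12.8.

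Which 0 h library stood as the baseline decided the direction of several ade genes. Without replicate 2 of 0 h, edgeR called 6 of 10 ade units lower at 2.5 h (20.4% of all units were lower) and 1 higher (20.6%), and at 4.5 h 7 lower (20.6%) and 0 higher (19.8%). Without replicate 1 of 0 h, it called 3 of 10 higher at 2.5 h (22.2%) and 1 lower (19.8%), and at 4.5 h 2 higher (20.9%) and 1 lower (20.6%). The median of the ade units at 4.5 h was -0.66 without replicate 2 and 0.18 without replicate 1. The gene ade10 passed the test in opposite directions: at 2.5 h its log2 fold change was -0.95 (adjusted p = 0.00856) without replicate 2 and 1.37 (adjusted p = 0.00256) without replicate 1. At 4.5 h ade10 was at -1.48 (adjusted p = 0.00182) and 0.83 (adjusted p = 0.0142) in the same fits. The gene ade9 passed in the same direction against either 0 h library, at -0.94 (adjusted p = 0.00254) and -0.47 (adjusted p = 0.0327) at 2.5 h, and at -0.92 (adjusted p = 0.00267) and -0.47 (adjusted p = 0.0335) at 4.5 h. The unit of ade8 did so at 2.5 h only, with 0.51 (adjusted p = 0.0382) and 0.77 (adjusted p = 0.00908). The genes ade1, ade2, ade4 and ade6 were lower at both times without replicate 2 and were not called without replicate 1. A fit with a single 0 h library takes the spread of 0 h from the other times.

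**Figure D4:**
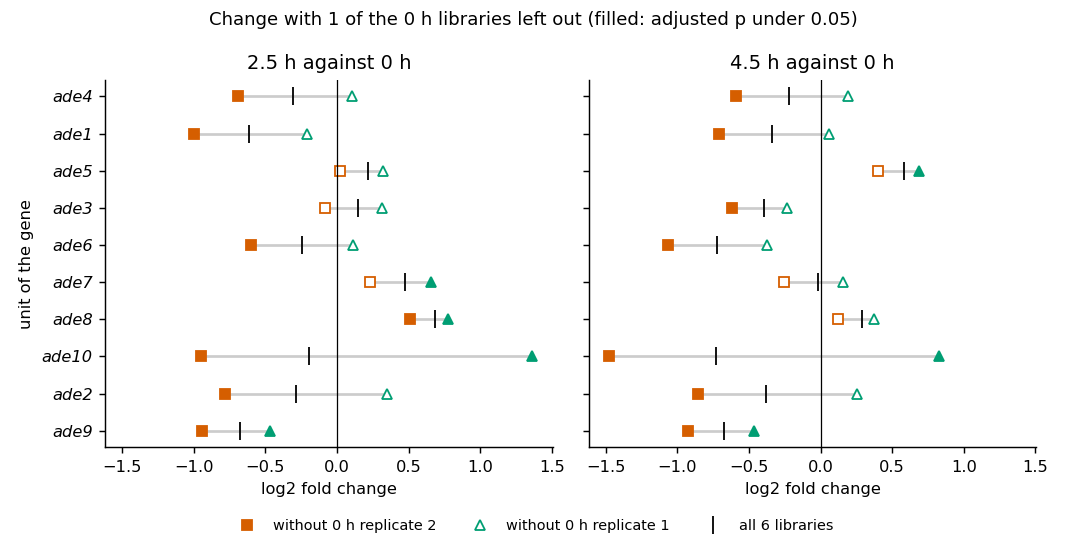
Log2 fold change of each ade unit (horizontal axes) with 1 library of 0 h left out, squares without replicate 2 and triangles without replicate 1, filled where the adjusted p was under 0.05, and ticks for all 6 libraries. The ade10 points lie on opposite sides of 0, at -0.95 and 1.37 at 2.5 h, and the ade9 points on the same side at both times.

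The third comparison asked what differed between 4.5 h and 2.5 h, where the libraries of each time lay closer together than those of 0 h. Between the 2.5 h libraries ade10 still differed 1.41-fold and ade6 1.38-fold, which 12.4% and 14.2% of all units matched or exceeded. In the fit over 6 libraries 0 of 10 ade units were called, beside 10.3% of all units (3.34% higher and 6.91% lower), with 0 at an unadjusted p under 0.05 and 0 by DESeq2, which called 17.7% of all units. The libraries of 4.5 h and 2.5 h did not overlap for 7 of the 10, with ade1 and ade5 higher and ade3, ade6, ade7, ade8 and ade10 lower at 4.5 h, and 73.7% of all units were separated in this way. With only these 4 libraries in the fit, 5 ade units passed as lower (20.5% of all units) and 1 as higher (18.3%). The lower units were ade3 (-0.55, adjusted p = 0.0271), ade10 (-0.54, adjusted p = 0.0302), ade7 (-0.51, adjusted p = 0.031), ade6 (-0.48, adjusted p = 0.0392) and ade8 (-0.41, adjusted p = 0.0453). The higher unit was ade5 (0.36, adjusted p = 0.0383). In CPM, ade10 had 439 and 465 at 4.5 h against 767 and 543 at 2.5 h, and ade3 had 902 and 920 against 1149 and 1513. The unit of ade7 had 142 and 177 CPM at 4.5 h, against 204 and 246 CPM at 2.5 h, and that of ade8 had 296 and 345 against 386 and 459. The log2 differences themselves were almost the same in both fits, and the SE of ade10 was 0.76 over 6 libraries and 0.16 over 4. The genes ade2, ade4 and ade9 stayed within 0.10 of 0 on the log2 scale in both fits.

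On the opposite strand 4 of the 10 ade units were overlapped by another unit, and in 1 case the ade gene itself was covered. The unit of med7, a Mediator subunit gene, runs against ade8 over all 2679 bases of the annotated ade8 gene. It had 40.6 and 54.3 CPM at 0 h, 64.6 and 76.2 CPM at 2.5 h, and 45.2 and 45.1 CPM at 4.5 h, so it was above its 0 h libraries at 2.5 h as ade8 was (log2 fold change 0.57, adjusted p = 0.0964). The strand setting of the counting is not given in the sources used here, and the part of med7 reads in the ade8 value was not tested. The overlaps of the other 3 fell outside the ade gene. A noncoding unit against the meu18 end of the ade7 unit (chromosome II, 1158863 to 1160261, minus strand) had 11.5 and 13.8 CPM at 0 h, 6.66 and 9.21 CPM at 2.5 h, and 4.19 and 5.21 CPM at 4.5 h. It fell at 4.5 h relative to 0 h (log2 fold change -1.43, SE 0.27, adjusted p = 0.0197). The polyamine synthesis gene spe1, of ornithine decarboxylase, meets the end of the ade2 unit over 25 bases and rose at 2.5 h and at 4.5 h (log2 fold changes 0.99 and 1.14, adjusted p = 0.0114 and 0.00903), whereas the ade2 unit was at -0.28 and -0.38. The RNA-dependent RNA polymerase gene rdp1, which overlaps the downstream end of the ade3 unit by 2063 bases, was at -0.10 and -0.14 (adjusted p = 0.757 and 0.647).

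Genes of linked routes were read beside the ade genes from lists of textbook members. Of 20 other purine genes (AMP and GMP branches, salvage and PRPP supply) 16 were matched to a measured unit. The symbols prs2, prs3, prs4 and pnp1 matched none, and the purine nucleoside phosphorylase unit SPAC1805.16c, named further on, was not counted here. Of the 16, prs1 is a proline tRNA ligase in the RefSeq annotation and was set aside, which left only prs5 for PRPP supply. Of the other 15, edgeR called 0 at 2.5 h (17.4% of all units) and 0 at 4.5 h (17.9%) relative to 0 h. Their medians were -0.13 and -0.12, with 3 and 2 at an unadjusted p under 0.05. Between 4.5 h and 2.5 h 1 was lower, the guanine deaminase gene gud1, beside 6.91% of all units. It had 41.9 and 47.4 CPM at 4.5 h against 116 and 124 CPM at 2.5 h (log2 fold change -1.43, SE 0.31, adjusted p = 0.0461). The IMP dehydrogenase gene gua1, at the entry to GMP, had 590 and 362 CPM at 0 h, 322 and 309 CPM at 2.5 h, and 364 and 380 CPM at 4.5 h. The GMP synthase gene gua2 had 561 and 197 CPM at 0 h, 269 and 232 CPM at 2.5 h, and 254 and 278 CPM at 4.5 h, so that, as in ade10 and ade2, its later libraries lay between the 0 h ones. The adenosine deaminase gene ada1, one of the 2 with the lowest p at 4.5 h relative to 0 h, was at 0.45 (adjusted p = 0.0993), and gud1, the other, at -0.85 (adjusted p = 0.113). Of the 15 genes 13 were higher in replicate 1 than in replicate 2 of 0 h (median difference 0.95).

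Among 12 folate and one-carbon genes 1 rose at 2.5 h (12.3% of all units) and 1 fell at 4.5 h (7.80%) relative to 0 h, with medians of -0.07 and -0.41. The riser was fau1, of a 5-formyltetrahydrofolate cyclo-ligase, with 48.5 and 57.5 CPM at 2.5 h against 9.04 and 6.48 CPM at 0 h (log2 fold change 2.77, SE 0.24, adjusted p = 0.00468). At 4.5 h fau1 was back at 6.24 and 6.36 CPM. It was the 1 gene of the list that fell at 4.5 h relative to 2.5 h (log2 fold change -3.07, adjusted p = 0.0151), beside 6.91% of all units. The gene that fell at 4.5 h was fol1, of dihydropteroate synthase, with 32.8 and 31.2 CPM against 76.7 and 47.2 CPM at 0 h (log2 fold change -0.95, SE 0.25, adjusted p = 0.0472). Histidine synthesis also draws on PRPP and returns the purine intermediate AICAR. Of its 7 measured units 1, his7, rose at 2.5 h (0.97, adjusted p = 0.0147), beside 12.3% of all units. At 4.5 h 1, his3, fell (-0.67, adjusted p = 0.0472), beside 7.80%, and the medians at the 2 times were 0.21 and -0.20. Of 5 pyrimidine synthesis units 0 were called at either time by edgeR, beside 17.4% and 17.9% of all units. At each time 1 had an unadjusted p under 0.05, and the medians were -0.24 and -0.26. The lowest p at 4.5 h were those of ura1 (-0.80, adjusted p = 0.0591) and of the unit with ura5 (-0.26, adjusted p = 0.349). The names fau1 and his7 and the values of gua1 and gua2 were chosen after the values were seen.

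Of 12 core stress genes, all lower in replicate 1 than in replicate 2 of 0 h, edgeR called 3 higher and 1 lower at 2.5 h relative to 0 h (12.3% and 5.11% of all units). At 4.5 h it called 6 higher and 1 lower (10.1% and 7.80% of all units; median 1.03), and the other 5 did not pass. Those higher at 4.5 h included the small heat shock genes hsp9 (2.97, adjusted p = 0.00383) and hsp16 (2.15, adjusted p = 0.00936), the sulfiredoxin gene srx1 (1.67, adjusted p = 0.0275) and the peroxidase gene gpx1 (1.28, adjusted p = 0.00693), while tms1 fell (-1.68, adjusted p = 0.0176). Of 8 nitrogen starvation and mating genes 4 rose at 2.5 h, beside 12.3% of all units, and 1, the proline permease gene put4, fell at 4.5 h (-0.99, adjusted p = 0.0312), beside 7.80%. Of 138 ribosomal protein units, whose 0 h libraries lay furthest apart of these lists, 2 rose at 2.5 h and 3 at 4.5 h and 0 fell, below the 17.4% and 17.9% of all units called at these times. All these list counts are from the fit over 6 libraries. The part of these changes in the ade values was not tested.

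The ade genes did not share a single profile over the 6 libraries. The mean of their centred log2 CPM was 0.49 and -0.37 in the 0 h libraries, 0.04 and 0.08 in those of 2.5 h, and -0.13 and -0.11 in those of 4.5 h. The Pearson correlation with this mean was 0.97 for ade2, 0.96 for ade10, 0.89 for ade4, 0.77 for ade6, 0.72 for ade3 and 0.71 for ade1. It was 0.62 for ade7, 0.58 for ade9, 0.36 for ade8 and 0.14 for ade5, with each member being part of the mean. Of 4449 coding units outside the set, the 5 closest to the mean were SPAC1805.16c (r = 0.991), annotated as a purine nucleoside phosphorylase, lys9 (0.985), of lysine synthesis, grs1 (0.984), of glycine tRNA ligase, ung1 (0.983), of uracil DNA glycosylase, and ppc1 (0.982), of coenzyme A synthesis. The first had 70.3 and 35.8 CPM at 0 h, 51.4 and 49.8 CPM at 2.5 h, and 41.3 and 42.1 CPM at 4.5 h, and all 5 were higher in replicate 1 of 0 h by 0.93 to 1.86 on the log2 scale. With the profile of ade6 alone the closest were the zinc transporter gene zhf1 (0.987), the cohesin loading gene ssl3 (0.986) and duf8901 (0.981). The last is annotated as a metal-dependent phosphatase. These likenesses rest on 6 libraries that share the gap at 0 h, and 2.94% of coding units reached r = 0.9 with the mean.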

How the data were processed

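Newly made RNA was measured in 6 libraries, 2 at each of 3 times. Per the labels, RNA carrying 4-thiouracil was purified, and the Ovation Universal RNA-Seq kit was used for the libraries. The submitters' processing notes name STAR 2.3.0, SAMtools and the build ASM294v2. How reads were counted, on which strand and with what rule for multiple matches is not given in the sources used here. For each transcription unit the authors deposited a raw count per library. The authors' deposited unit table gives coordinates, genes and kinetic scores with no stated time unit, used here only as ranks.

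Gene names came from RefSeq ASM294v3: 5037 of 5062 identifiers (99.5%) matched and overlapped their unit, and 4894 of 4912 introns (99.6%) had the usual end bases in that genome. The members and lists were chosen with earlier results of these data known. Named genes are all members, the units overlapping them, up to 5 called genes per list at 4.5 h (or else the 2 with the lowest p), and the closest profiles.

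Counts were tested with edgeR 4.0.16 in R 4.3.3 across all units: filterByExpr by time (5208 units kept, 276 left out), TMM scaling, 1 robust quasi-likelihood fit over 6 libraries with time as the term, two-sided, with Benjamini-Hochberg adjusted p under 0.05 as the call. Residual degrees of freedom were 3, or 2 where a library was left out. SE is the log2 fold change divided by the root of F, and 95% intervals use the fit's total degrees of freedom. Log2 CPM use a prior count of 2. The labels call the libraries of a time biological replicates without naming the cultures, so p-values measure the spread between these libraries. Alternatives were DESeq2 1.42.0, its size factors, library totals, no filter or at least 50 counts in 2 libraries, the replicate number as a term, only the times compared, and each library left out. The scripts were tested on simulated data. Python 3.11.15, numpy 2.4.6, pandas 2.3.3, scipy 1.17.1 and matplotlib 3.10.9 were used for summaries and figures.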

Additional observations from a re-analysis of the deposited data

How the results depend on the processing

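Relative to 0 h, 0 of 10 ade units were called at 2.5 h and at 4.5 h with DESeq2's size factors (17.3% and 17.8% of all units). The same held without a filter (16.9% at both times) and with a stricter one (15.4% and 16.6%). It also held with only the times compared, where 8.01% and 7.02% of all units were called. DESeq2 called 2 at 2.5 h (22.5% of all units) and 1 at 4.5 h (23.8%), and scaling to library totals called 1 at 4.5 h, ade9 (15.6%). Between 4.5 h and 2.5 h, 6 were called with only those libraries in the fit (38.8% of all units). Under the other settings that kept all libraries 0 were called, beside 6.3% to 17.7% of all units. Leaving out 1 library at a time gave 0 to 7 calls at 2.5 h, 0 to 7 at 4.5 h and 0 to 6 between 4.5 h and 2.5 h. The share of all units called moved with the library left out: it was 40.4% to 42.0% relative to 0 h, and 38.3% to 38.4% between 4.5 h and 2.5 h, without a 0 h library. Without a later library 0 ade units were called, as were 0.019% to 7.23% of all units at 2.5 h, 0.907% to 6.34% at 4.5 h and 0 units between 4.5 h and 2.5 h, so these counts of 0 say little of the ade units. The medians relative to 0 h ran from -0.65 to 0.32 at 2.5 h and from -0.66 to 0.18 at 4.5 h under the same omissions, with both ends set by a 0 h library. Signs changed with a library left out for 5 units at 2.5 h, with log2 fold changes of -0.78 to 0.35 (ade2), -0.0858 to 0.33 (ade3), -0.69 to 0.10 (ade4), -0.60 to 0.11 (ade6) and -0.95 to 1.37 (ade10). At 4.5 h they changed for 5 units, at -0.71 to 0.0625 (ade1), -0.86 to 0.26 (ade2), -0.59 to 0.19 (ade4), -0.25 to 0.16 (ade7) and -1.48 to 0.83 (ade10). Between 4.5 h and 2.5 h ade9 ran from -0.0857 to 0.10. The labels do not say that a replicate number marks a shared culture. With the replicate block, 0 ade units were called in each comparison, beside 18.8%, 20.6% and 11.3% of all units. The medians of the ade units were -0.06, -0.30 and -0.25, and ade10 at 2.5 h turned to 0.0705. The value of ade7 at 4.5 h turned to 0.0035 under the stricter filter. The near-zero difference of ade9 between 4.5 h and 2.5 h turned to -0.0052 with DESeq2's size factors, -0.0644 with library totals, -0.0051 with DESeq2, -0.0105 with the stricter filter, -0.0062 with the replicate block and -0.0028 with only those times. The cause of these changes was not tested beyond the omissions. With 2 libraries a time, intervals are wide where the 0 h libraries differ, and ade units had at least 915 counts in each library.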
